A study of Mus musculus with 10 samples.

Results

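Transcripts of 9 genes by which regulatory T cells are known (Foxp3, Ikzf2, Ikzf4, Ctla4, Tnfrsf18, Lrrc32, Gpr83, Nrp1 and Il10) were examined in CD4+ T cells of mice labelled as bearing tumors. They were taken by gene symbol from a table of 17457 genes, and all 9 were present in all 10 libraries. The libraries formed 6 TEST and 4 CONTROL samples. TEST 1, TEST 2 and TEST 3 were C57BL/6 K14-TSLP +/tg, TSLPR -/- hosts that had received Ly5.1 CD4+ T cells and PyMT tumor cells. TEST 4 was a C57BL/6 K14-TSLP +/tg, MMTV-PyMT +/tg, TSLPR +/- mouse, TEST 5 a BALB/c K14-TSLP +/tg, MMTV-PyMT +/tg, Rag1 -/- host given CD4+ T cells, and TEST 6 a BALB/c K14-TSLP +/tg, MMTV-PyMT +/tg, Rag1 +/- mouse. CONTROL 1 and CONTROL 2 were C57BL/6 TSLPR -/- hosts given TSLPRKO CD4+ T cells and PyMT tumor cells. CONTROL 3 was a C57BL/6 K14-TSLP +/tg, MMTV-PyMT +/tg, TSLPR -/- mouse and CONTROL 4 a BALB/c Rag1 +/- mouse for which neither a transgene nor an implanted tumor is named, so that only the general protocol text places it among tumor-bearing mice. No ages of the mice at harvest are given in the labels.

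Per the labels, every sample was sorted at terminal tumor stage and held 5 h in culture with antibodies to CD3 and CD28, IL-2 and TSLP, so the CONTROL cells met TSLP as well. The paper instead describes the sequenced T cells as sorted fresh, a conflict that the sources used here do not settle, and levels of genes that respond to activation depend on it. K14-TSLP places the cytokine TSLP under a keratinocyte promoter, and MMTV-PyMT places a viral oncogene under a mammary promoter. TSLPR -/- hosts lack the TSLP receptor in their own cells too. The recipients of PyMT tumor cells were sublethally irradiated before transfer per the methods of the study, so residual host T cells may remain, and whether donor cells were gated by a congenic marker at harvest was not stated. The number of mice was 4 in TEST 1, TEST 2 and CONTROL 1 and 2 in TEST 3, and each of the other 6 libraries came from a single mouse. TEST 1 (tumor-draining node) and TEST 2 (non-draining nodes) held cells of the same 4 mice. TEST 3 came from non-draining nodes, CONTROL 1 from draining nodes, CONTROL 3 from spleen and the others from both kinds of node.

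Regulatory T cells restrain other immune cells, and the X-linked transcription factor FOXP3 sets and maintains their identity. Helios (Ikzf2) and Eos (Ikzf4) are Ikaros family zinc finger proteins that accompany FOXP3. CTLA-4 removes or blocks costimulatory ligands on antigen-presenting cells, GITR (Tnfrsf18) is a costimulatory receptor of the TNF receptor family, and GARP (Lrrc32) anchors latent TGF-β at the cell surface. Neuropilin-1 (Nrp1) is a coreceptor for semaphorins and VEGF, GPR83 is a G protein-coupled receptor found on mouse regulatory T cells, and IL-10 is a suppressive cytokine. Conventional CD4+ T cells also express Ctla4, Tnfrsf18, Ikzf2, Nrp1 and Il10 after activation, and helper T cells of several types make IL-10.

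The labels were first set against marker genes. Crlf2, which encodes the TSLP-binding chain of TSLPR, was at 5.70 to 34.9 FPKM in the TEST libraries and at 0.15, 0.21 and 0.16 FPKM in CONTROL 1, CONTROL 2 and CONTROL 3, whose T cells were labelled as lacking it. CONTROL 4, not labelled as lacking it, had 3.28 FPKM. Cd4 was at 130 to 193 FPKM in TEST and 104 to 133 FPKM in CONTROL, and Cd8a did not exceed 1.33 FPKM. The 9 B cell markers summed to 1.35 to 16.5 FPKM in TEST and 2.87 to 31.4 FPKM in CONTROL, and the 7 monocyte and macrophage markers to 2.96 to 19.6 FPKM in TEST and 4.65 to 8.89 FPKM in CONTROL. Markers of CD8 T and NK cells summed to at most 10.7 FPKM, of dendritic cells to at most 11.3 FPKM and of platelets to at most 1.77 FPKM in any library. Plasma cell markers summed to 39.4 FPKM in TEST 4 and to at most 2.69 FPKM elsewhere. Of the endothelial and stromal markers, Pecam1, which T cells also express, was at 70.4 FPKM in TEST 4 and 16.8 to 37.0 FPKM elsewhere, and the other 6 summed to at most 1.1 FPKM in any library. Il2ra, the high-affinity IL-2 receptor chain of regulatory and activated T cells, was at 95.2 to 500.3 FPKM in TEST and 55.9 to 187 FPKM in CONTROL. The share of ribosomal RNA in the summed FPKM was 1.18% for TEST 4, whereas it lay between 10.7% and 26.0% elsewhere. FPKM, a fragment count scaled by transcript length and library total, can be compared between genes, but the table holds no counts and its absolute depth is unknown.

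Windows of 250 bases before the annotated starts are printed to show the sequence beside which the transcripts begin. They are those of Foxp3 and of Nrp1, Tnfrsf18 and Gpr83, the genes with a limma unadjusted p under 0.05 between TEST and CONTROL. The windows are from RefSeq on GRCm38.p6, the build called mm10, and 5 of the 9 genes had an entry in the promoter table. Ctla4, the other gene with an entry, had an NFAT match in its window, which is not printed. Capitals mark matches, on either strand, to any of 6 short motifs, spelled out after the windows.
Foxp3, first window, chrX:7579426-7579675, plus strand: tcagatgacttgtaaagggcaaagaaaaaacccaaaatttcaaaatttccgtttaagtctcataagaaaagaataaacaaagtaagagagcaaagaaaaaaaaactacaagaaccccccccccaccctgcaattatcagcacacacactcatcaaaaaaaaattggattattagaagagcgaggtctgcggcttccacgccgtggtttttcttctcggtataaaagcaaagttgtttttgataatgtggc
Foxp3, second window, chrX:7580233-7580482, plus strand: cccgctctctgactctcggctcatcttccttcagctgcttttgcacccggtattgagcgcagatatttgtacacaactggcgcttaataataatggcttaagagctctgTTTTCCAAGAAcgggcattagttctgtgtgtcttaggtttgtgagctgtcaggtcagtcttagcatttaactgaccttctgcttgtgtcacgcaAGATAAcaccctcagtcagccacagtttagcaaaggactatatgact
Tnfrsf18, chr4:156026072-156026321, plus strand: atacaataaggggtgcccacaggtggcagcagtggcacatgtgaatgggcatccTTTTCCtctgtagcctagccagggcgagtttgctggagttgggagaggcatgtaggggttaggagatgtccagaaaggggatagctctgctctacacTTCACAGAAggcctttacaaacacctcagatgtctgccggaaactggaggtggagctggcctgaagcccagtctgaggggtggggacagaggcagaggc
Nrp1, chr8:128358823-128359072, plus strand: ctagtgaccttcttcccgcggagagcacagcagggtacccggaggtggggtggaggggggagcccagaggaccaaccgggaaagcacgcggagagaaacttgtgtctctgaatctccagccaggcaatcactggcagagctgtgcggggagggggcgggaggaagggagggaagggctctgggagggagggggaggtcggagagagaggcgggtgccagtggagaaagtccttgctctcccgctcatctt
Gpr83, chr9:14859960-14860209, plus strand: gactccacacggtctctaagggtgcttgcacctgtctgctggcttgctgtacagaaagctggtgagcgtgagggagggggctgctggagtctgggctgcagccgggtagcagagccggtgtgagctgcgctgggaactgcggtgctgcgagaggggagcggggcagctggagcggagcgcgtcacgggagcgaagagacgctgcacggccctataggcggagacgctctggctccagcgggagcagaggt
The second Foxp3 window held a STAT5 match that overlapped an NFAT match, and a GATA match. The Tnfrsf18 window held a STAT5 and an NFAT match, and the Nrp1, Gpr83 and first Foxp3 windows held none of the 6. Among 32851 promoter windows of the same length, the STAT5 letters TTCNNNGAA were found in 7.02%. The NFAT letters GGAAAA were found in 20.4% of them and the GATA letters AGATAA in 9.99%. The other motifs searched were forkhead, spelled GTAAACA and found in 3.17% of windows, the AP-1 letters TGANTCA in 6.75% and the ETS letters CCGGAAGT in 2.88%. These are matches of letters and were not tested as binding sites.

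Measured per length, the genes spanned a wide range of levels. Tnfrsf18 averaged 276 ± 101 FPKM over the 10 libraries (SD, n = 10), followed by Ctla4 at 190.4 ± 112 and Foxp3 at 104 ± 57.7 FPKM. Lrrc32 averaged 52.1 ± 30.6, Ikzf4 32.4 ± 11.6 and Ikzf2 29.9 ± 18.9 FPKM. The lowest were Nrp1 at 15.8 ± 11.2, Gpr83 at 14.2 ± 15.9 and Il10 at 13.4 ± 7.11 FPKM. Each pair of neighbours in this order differed by less than the larger of their SDs. Gpr83 had the widest range relative to its mean, with 0.98 to 48.9 FPKM.

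To determine whether regulatory T cell genes differed between the T cells of the TEST and the CONTROL group, log2(FPKM + 1) values were fitted with limma for the 10743 genes that reached 1 FPKM in 4 or more libraries. None of the 9 genes passed an adjusted p of 0.05, against 10 of the 10743 genes, or 0.0931%. At an unadjusted p under 0.05 there were 3, Nrp1 and Tnfrsf18 higher and Gpr83 lower in TEST. By comparison, 13.7% of all genes reached that level. The rank-sum test adjusted over all genes called none, but it could hardly call any at these group sizes. Nrp1, with all TEST libraries above all CONTROL libraries, had the smallest p this test can give, 0.00952 (rank-sum adjusted p = 0.277). No conclusion is drawn from the rank-sum test. Of the 9 genes, 4 had a positive and 5 a negative difference, with a median of -0.26 beside 0.003 over all genes.

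**Figure D1:**
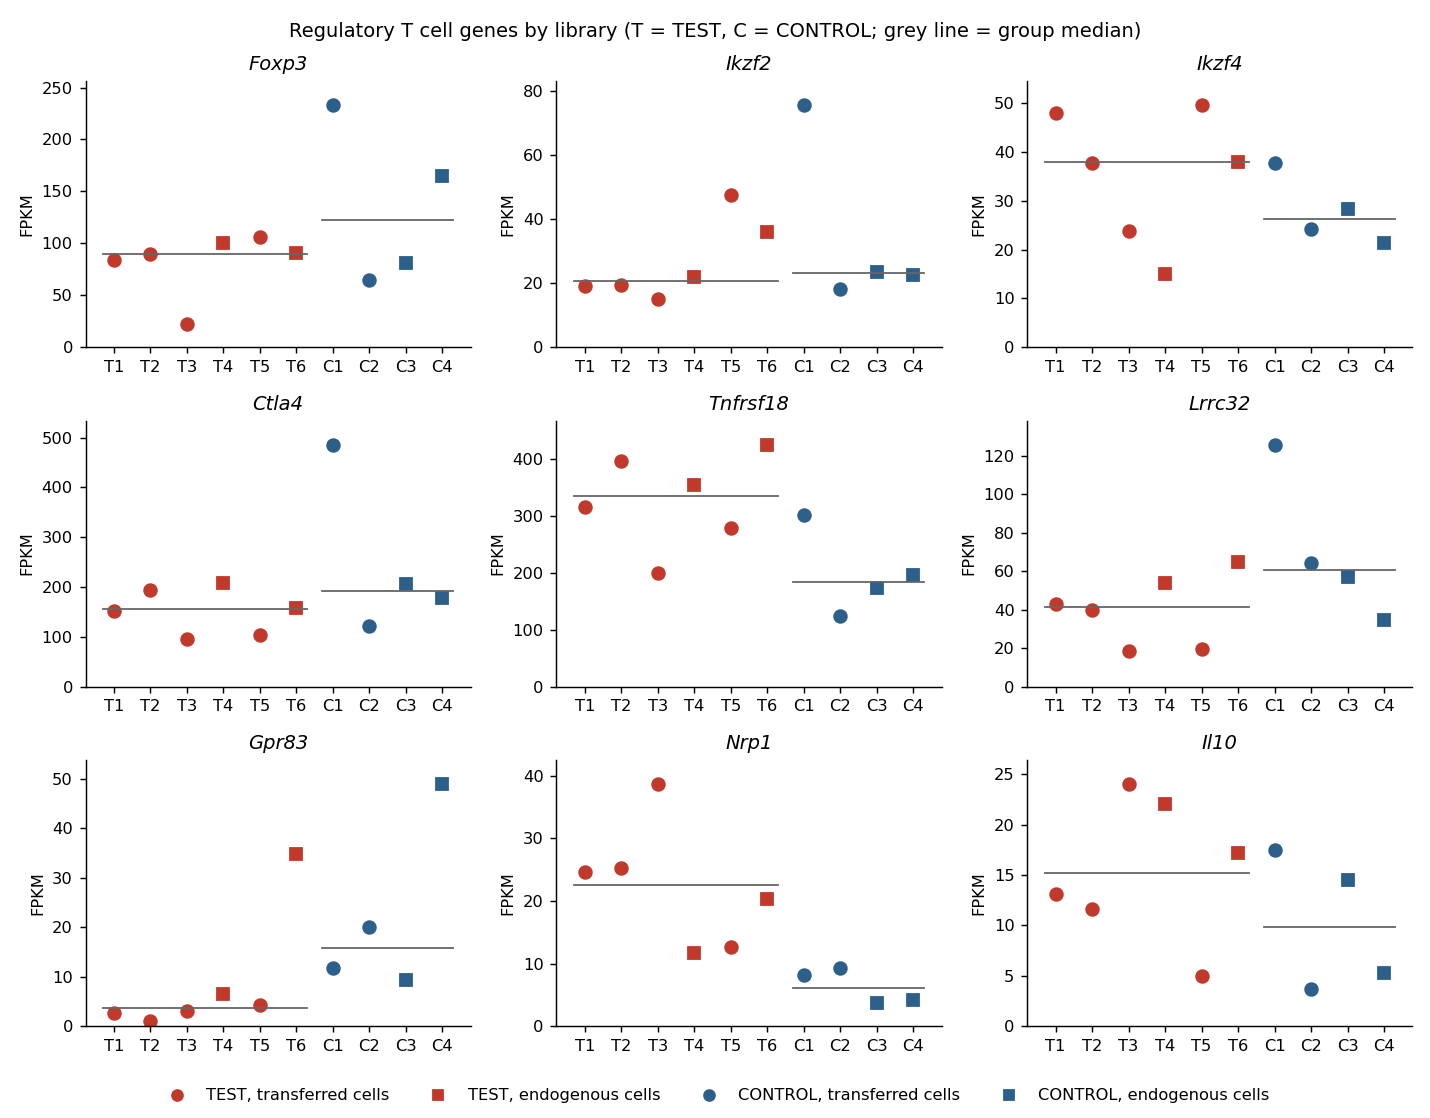
Level of each of the 9 genes in FPKM (vertical axis, from 0) in the 6 TEST (T1 to T6, red) and 4 CONTROL libraries (C1 to C4, blue), with circles for transferred and squares for endogenous T cells and a grey line at each group's median. Nrp1 is the gene whose 6 TEST values, 11.6 to 38.6 FPKM, all lie above the 4 CONTROL values, and TEST 3 has the lowest Foxp3 at 21.9 FPKM.

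Among the transcription factors, Foxp3 (gene ID 20371, chromosome X, 7579676 to 7595243) was at 83.8, 89.5, 21.9, 101, 106 and 90.3 FPKM in TEST 1 to TEST 6, against 233, 64.5, 80.8 and 165 FPKM in CONTROL 1 to CONTROL 4. Most TEST values lay in a narrow band, TEST 3 lay far below it, and the CONTROL values reached both below and above the band, so the groups overlapped. The difference was -0.68 ± 0.45 (SE) on the log2(FPKM + 1) scale, 1.61-fold lower in TEST (limma adjusted p = 0.517). It was -0.34 without TEST 3 and -0.36 without CONTROL 1, but -0.98 without CONTROL 2 and -0.87 without CONTROL 3. In bulk samples fewer regulatory T cells and less Foxp3 RNA per cell cannot be told apart.

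Ikzf2 (chromosome 1, 69531207 to 69687351), encoding Helios, was at 19.0, 19.4, 14.9, 21.8, 47.7 and 36.1 FPKM in TEST 1 to TEST 6, against 75.7, 18.0, 23.6 and 22.6 FPKM in CONTROL 1 to CONTROL 4. Values lay between 14.9 and 23.6 FPKM in most libraries of both groups, and the high ones were the BALB/c TEST libraries and CONTROL 1. The log2 difference of -0.26 ± 0.40 (SE; limma adjusted p = 0.809) was 0.19 without CONTROL 1, so its sign rested on that library, and -0.12 without TEST 3, -0.45 without TEST 5 and -0.48 without CONTROL 2. Ikzf4 (chromosome 10, 128630839 to 128669671), encoding Eos, ranged from 15.1 to 49.6 FPKM in TEST with a median of 37.9, and from 21.3 to 37.8 FPKM in CONTROL with a median of 26.3. The groups overlapped, and the log2 difference was 0.26 ± 0.31 (SE; limma adjusted p = 0.753), with a value of -0.05 within C57BL/6. It was 0.15, 0.14 and 0.14 without TEST 1, TEST 5 or CONTROL 4, and 0.47 and 0.41 without TEST 4 or CONTROL 1.

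Of the surface receptors, Nrp1 (gene ID 18186, chromosome 8, 128358591 to 128505476) was at 24.6, 25.3, 38.6, 11.6, 12.6 and 20.4 FPKM in TEST 1 to TEST 6, against 8.13, 9.25, 3.67 and 4.19 FPKM in CONTROL 1 to CONTROL 4. All TEST libraries exceeded all CONTROL libraries, as was the case for 159 of the 10743 genes, or 1.48%. The difference was 1.64 ± 0.35 (SE) on the log2 scale, 3.11-fold, with an unadjusted p of 0.000324, the 40th smallest, and an adjusted p of 0.0852 in limma. An exact permutation test of the group labels gave p = 0.00952, unadjusted and two-sided, where 0.00476 is the smallest possible. Without TEST 4, the library with the least ribosomal RNA, Nrp1 passed (limma adjusted p = 0.0349). It also passed when libraries that scattered more around their group means over all genes were given less weight (limma adjusted p = 0.00511). Such weights come from the same values that are tested. Those 2 fits called 84 and 334 genes. With TEST 1 and TEST 2, which share mice, averaged, the Nrp1 difference was 1.58 (limma adjusted p = 0.194). Without CONTROL 3 it was 1.45 (limma adjusted p = 0.321). Over the 26 alternatives the Nrp1 difference stayed between 1.22 and 1.98 and its adjusted p between 0.00511 and 0.602.

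Tnfrsf18 (gene ID 21936, chromosome 4, 156026322 to 156028894) was at 315, 396, 199.6, 355, 278 and 426 FPKM in TEST 1 to TEST 6, against 301, 124, 173 and 196 FPKM in CONTROL 1 to CONTROL 4. TEST 3 lay beside the lower CONTROL libraries and CONTROL 1 within the TEST range. The log2 difference was 0.75 ± 0.29 (SE), 1.69-fold (limma unadjusted p = 0.0197, adjusted p = 0.284), and the exact permutation p was 0.0381, unadjusted. All 26 alternatives gave a positive difference, from 0.55 to 1.08. Gm16008, a gene whose span overlaps that of Tnfrsf18, did not exceed 2.46 FPKM.

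Gpr83 (gene ID 14608, chromosome 9, 14859880 to 14870789) was at 2.58, 0.98, 2.98, 6.41, 4.26 and 34.9 FPKM in TEST 1 to TEST 6, against 11.8, 20.0, 9.30 and 48.9 FPKM in CONTROL 1 to CONTROL 4. Among the TEST libraries only TEST 6 reached the CONTROL range, and the highest library of each group was an endogenous BALB/c one. The log2 difference was -1.72 ± 0.66 (SE), 3.30-fold lower in TEST (limma unadjusted p = 0.0206, adjusted p = 0.287), with an exact permutation p of 0.0762, unadjusted. It was negative in all 26 alternatives, between -2.25 and -0.48, and passed only with library weights (limma adjusted p = 0.0497).

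Ctla4 (chromosome 1, 60909025 to 60915832) was at 153, 193, 95.6, 209, 104 and 158 FPKM in TEST 1 to TEST 6, against 486, 121, 207 and 178 FPKM in CONTROL 1 to CONTROL 4. CONTROL 1 stood above all others, and the other CONTROL values lay inside the TEST range. The log2 difference was -0.56 ± 0.35 (SE; limma adjusted p = 0.504), -0.17 without CONTROL 1 and -0.84 without CONTROL 2. Lrrc32 (chromosome 7, 98489305 to 98501831) was at 43.0, 39.7, 18.7, 54.0, 19.8 and 64.9 FPKM in TEST 1 to TEST 6, against 126, 64.3, 56.7 and 34.7 FPKM in CONTROL 1 to CONTROL 4. The groups overlapped, TEST 3 and TEST 5 were low and CONTROL 1 was high, and the log2 difference was -0.79 ± 0.39 (SE; limma adjusted p = 0.392). It was -0.46 without CONTROL 1, -1.07 without CONTROL 4, and 0.41 in the 2 TEST and 2 CONTROL libraries of endogenous cells alone.

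Il10 (gene ID 16153, chromosome 1, 131019845 to 131024970), the secreted effector of the set, was at 4.98 to 24.0 FPKM in TEST with a median of 15.2, and at 3.66 to 17.5 FPKM in CONTROL with a median of 9.86. TEST 5, CONTROL 2 and CONTROL 4 were low, at 4.98, 3.66 and 5.26 FPKM, and the other libraries of both groups lay at 11.7 FPKM or more. The log2 difference was 0.65 ± 0.45 (SE; limma adjusted p = 0.548), 0.30 without CONTROL 2 and 0.96 without CONTROL 1.

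**Figure D2:**
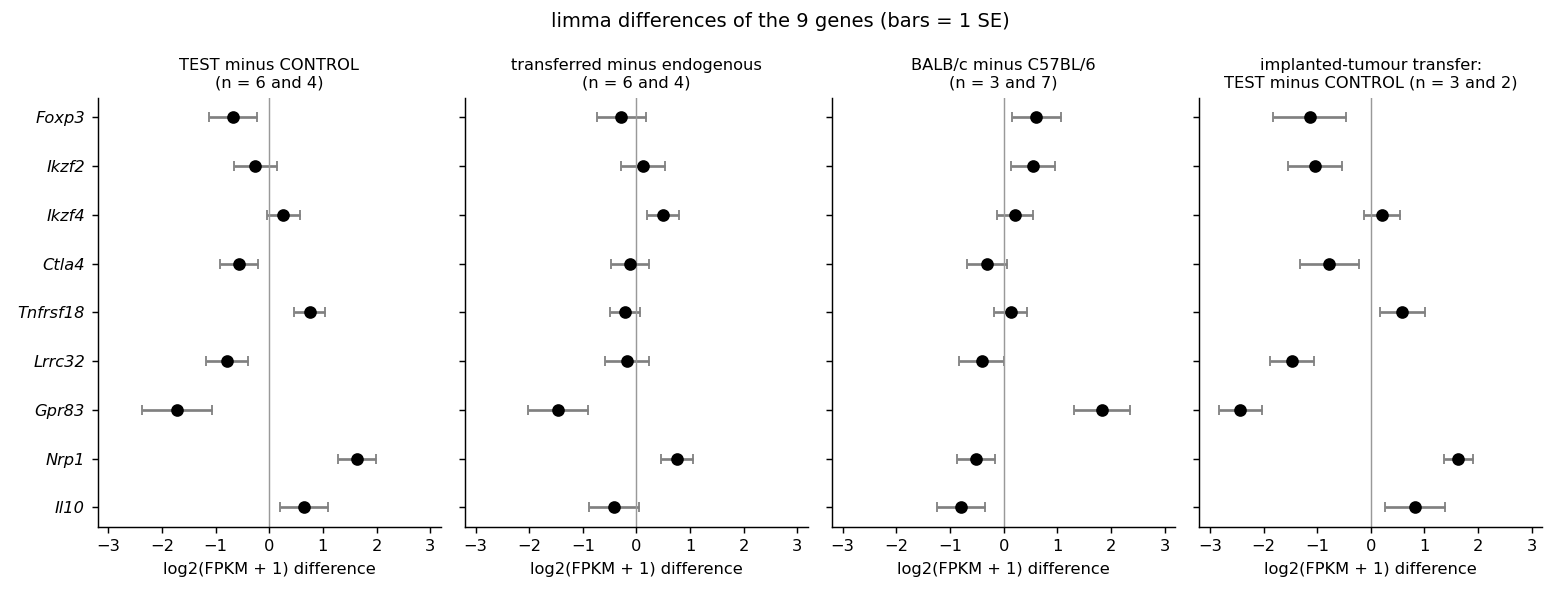
Difference of each gene on the log2(FPKM + 1) scale (horizontal axis) in 4 comparisons fitted with limma, with bars of 1 SE and the number of libraries above each panel. Nrp1 at 1.64 and Gpr83 at -1.72 are the outermost points of the TEST and CONTROL comparison.

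TEST 3 was examined because its Foxp3 was known to be the lowest of TEST, so that value is a description. Its Foxp3 of 21.9 FPKM was the lowest of all 10 libraries, against 83.8 to 106 FPKM in the other TEST libraries, a level 4.13-fold below their median. TEST 3 was also lowest of all libraries for Ctla4, Ikzf2 and Lrrc32, and lowest of TEST for Tnfrsf18, at 95.6, 14.9, 18.7 and 199.6 FPKM. In contrast, it had the highest Nrp1 and Il10 of all libraries, 1.90-fold and 1.83-fold above the median of the other TEST libraries. With FPKM rescaled to equal sums, without ribosomal RNA rows or by median ratio, Foxp3, Ctla4 and Lrrc32 stayed lowest and Nrp1 and Il10 highest in TEST 3, and Ikzf2 was no longer the lowest in the last 2 scalings. TEST 3 was the pool of 2 mice, with non-draining nodes like TEST 2, whose Foxp3 was 89.5 FPKM. Its ribosomal RNA share of 22.1% and relative depth of 0.99 times TEST 1 were within the range of the other libraries. Its B cell markers summed to 4.71 FPKM, where TEST ranged from 1.35 to 16.5. Its macrophage markers summed to 5.37 FPKM, where TEST ranged from 2.96 to 19.6. The part of any of these in its Foxp3 level was not tested.

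CONTROL 1 had the highest Foxp3, Ctla4, Ikzf2 and Lrrc32 of all libraries. Its Foxp3 was 2.88-fold, its Ikzf2 3.36-fold, its Ctla4 2.72-fold and its Lrrc32 2.21-fold above the median of the other 3 CONTROL libraries. Its Il10 was 3.33-fold and its Nrp1 1.94-fold above that median too, genes that were also high in TEST 3, and its Gpr83 was 0.588 times that median. CONTROL 1 was a pool of 4 mice and was also high in Mki67, a proliferation marker, at 50.3 FPKM against 5.76 to 7.93 in the other CONTROL libraries. TEST 1 and TEST 2, also pools of 4 mice, had 64.1 and 57.4 FPKM of Mki67 and 83.8 and 89.5 FPKM of Foxp3. The part of pooling or proliferation in these levels was not tested.

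In the values as deposited, genes that overlap Foxp3 on the X chromosome were lowest in TEST 3 and highest in CONTROL 1. Flicr, a long noncoding RNA transcribed at the Foxp3 locus, was at 2.14 FPKM in TEST 3, the lowest of the 10, and at 12.8 in CONTROL 1, the highest. Ccdc22, whose annotated span overlaps that of Foxp3, was at 10.8 FPKM in TEST 3, again the lowest, and at 43.2 in CONTROL 1, the highest. TEST 4, with Foxp3 at 101 FPKM, was close to TEST 3 for both genes, at 2.72 FPKM of Flicr and 11.6 of Ccdc22. Scaling without ribosomal RNA rows lowers all values of TEST 4, with Foxp3 at 68.1 FPKM, and hardly moves those of TEST 3, with Foxp3 at 22.1. Which library is lowest for these 2 genes thus depends on the scaling. Whether the counting used strand was not stated, so reads of overlapping genes may not be separable.

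Across the 10 libraries Foxp3 correlated with Ctla4 at Pearson r = 0.74 and Spearman rho = 0.52, with Ikzf2 at 0.69 and 0.78, and with Lrrc32 at 0.57 and 0.18, on the log2 scale. The r with Gpr83, Tnfrsf18, Ikzf4 and Il10 was 0.38, 0.30, 0.18 and -0.23. Nrp1 had a negative correlation, at r = -0.59 and rho = -0.38. Without TEST 3 and CONTROL 1, the 2 libraries farthest from the median of Foxp3, r was 0.19 for Ctla4, 0.26 for Ikzf2, -0.53 for Lrrc32 and -0.31 for Nrp1 over the other 8. The rho over those 8 was 0.05 for Ctla4, 0.57 for Ikzf2, -0.62 for Lrrc32 and 0.02 for Nrp1. Leaving out the extremes of Foxp3 narrows its range, which by itself lowers r. The correlation with Lrrc32 changed sign and that with Ctla4 was close to 0 without them, whereas Ikzf2 kept a positive rho. These r are descriptions, and the 10 points share mice in TEST 1 and TEST 2 and one scaling to the library total.

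**Figure D3:**
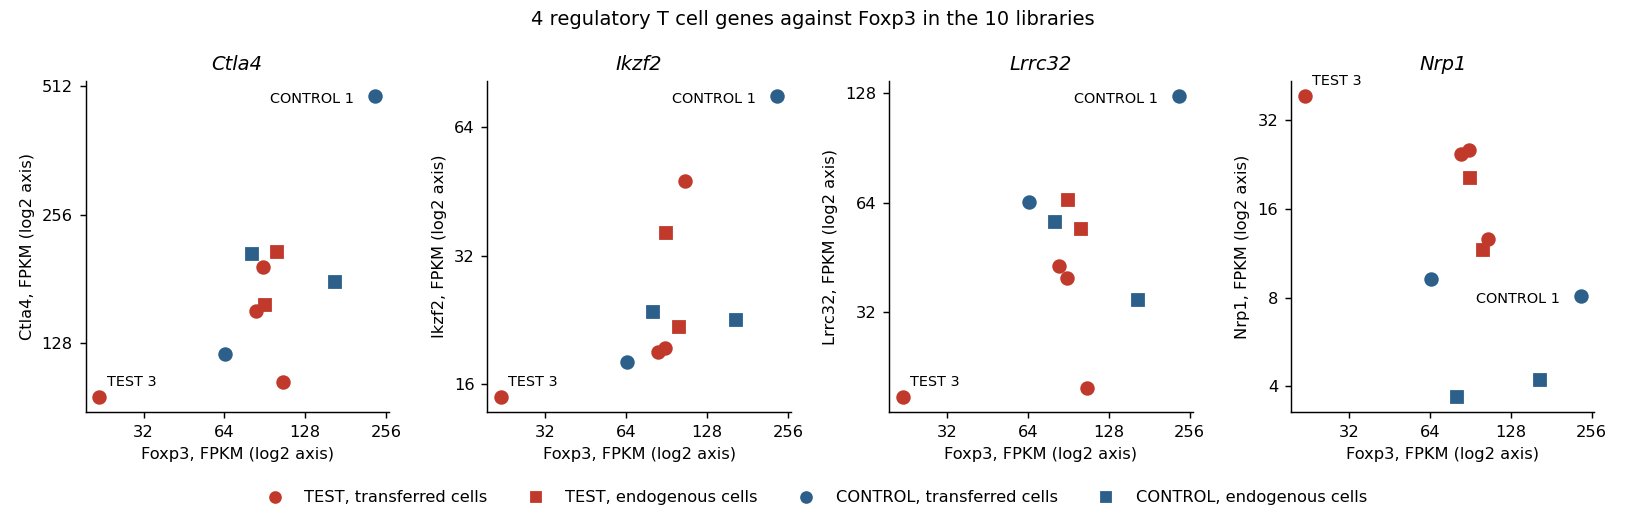
FPKM of Ctla4, Ikzf2, Lrrc32 and Nrp1 (vertical axes, log2) against FPKM of Foxp3 (horizontal axis, log2) in the 10 libraries, TEST in red and CONTROL in blue, circles for transferred and squares for endogenous T cells. TEST 3, at 21.9 FPKM of Foxp3, and CONTROL 1, at 233, form the ends of each panel.

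The 8 genes with the highest r with Foxp3, among 9515 others at a mean of 2 FPKM or more, were Akap2 (0.87), Asb7 (0.86), Mtbp (0.84), Ift46 (0.83), Pcgf1 (0.82), Nxt2 (0.82), 1700017B05Rik (0.81) and 2410133F24Rik (0.81). None belonged to the 9 genes, and 24 genes had an r above that of Ctla4. Without TEST 3 and CONTROL 1, r stayed at 0.89 for Ift46, an intraflagellar transport protein gene, at 0.71 for 1700017B05Rik and at 0.70 for Asb7, and it was 0.14 for Akap2, 0.06 for Nxt2 and 0.23 for Pcgf1. Ift46 was expressed at 2.85 FPKM in TEST 3 and at 13.2 in CONTROL 4.

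A ratio to Foxp3 within a library does not depend on how that library was scaled. Tnfrsf18 was 3.77, 4.43, 9.11, 3.54, 2.63 and 4.71 times Foxp3 in TEST 1 to TEST 6, against 1.29, 1.92, 2.14 and 1.19 times in CONTROL 1 to CONTROL 4. All TEST ratios lay above all CONTROL ratios, as did those of 293 of 10742 genes, or 2.73%. The Tnfrsf18 levels themselves overlapped between the groups, with TEST 3 at 199.6 FPKM and CONTROL 1 at 301. All ratios in TEST 3 share its low Foxp3 as divisor, so no conclusion is drawn from this separation. Nrp1 was 0.293, 0.283, 1.76, 0.116, 0.119 and 0.226 times Foxp3 in TEST 1 to TEST 6, against 0.0349, 0.143, 0.0454 and 0.0254 times in CONTROL 1 to CONTROL 4, and CONTROL 2 fell inside the TEST range. The Ctla4 ratio had a median of 1.95 in TEST and 1.98 in CONTROL, and ranged from 0.983 in TEST 5 to 4.36 in TEST 3. Since TEST 3 was named for its low Foxp3, the divisor, high ratios there restate that value. This holds for Ctla4 and Ikzf2, whose own levels were the lowest in TEST 3, and for Tnfrsf18, whose level there was the lowest of TEST. The Il10 transcript exceeded that of Foxp3 in TEST 3 alone, at 24.0 FPKM beside 21.9. These ratios were not tested.

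**Figure D4:**
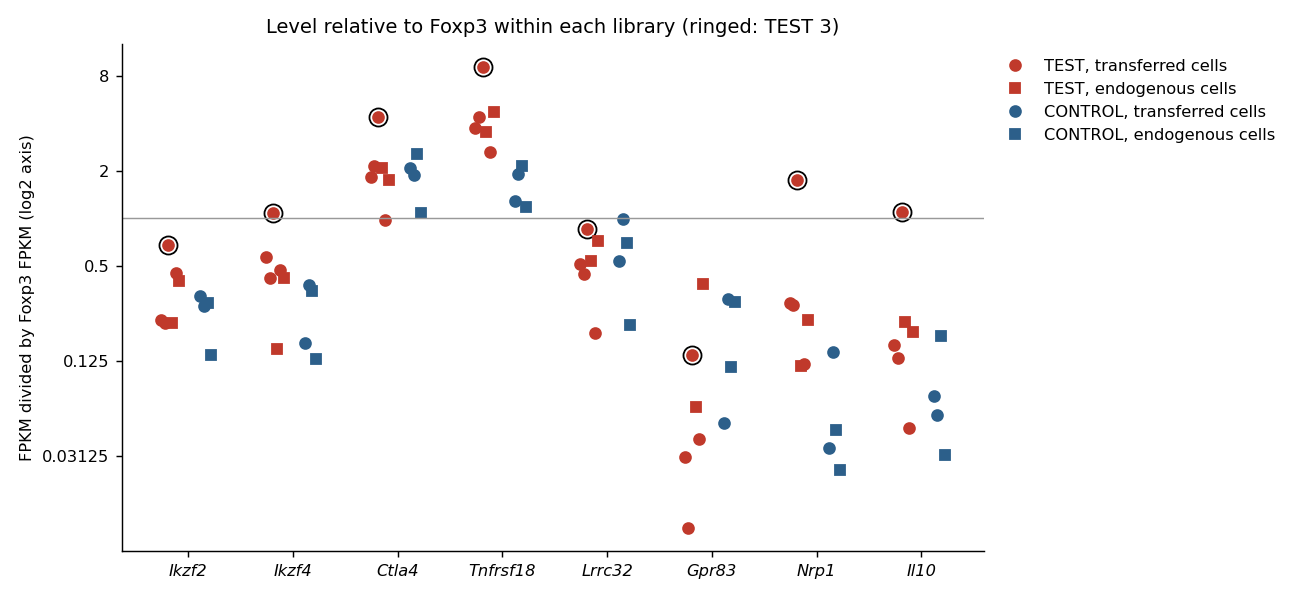
FPKM of 8 genes divided by the FPKM of Foxp3 in the same library (vertical axis, log2), TEST in red left of CONTROL in blue, circles for transferred and squares for endogenous T cells, with TEST 3 ringed. The grey line marks a ratio of 1, and the Tnfrsf18 ratios run from 2.63 to 9.11 in TEST and from 1.19 to 2.14 in CONTROL. The 9.11 is that of TEST 3, where the divisor was low.

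In the comparison with the most similar hosts, the implanted-tumor recipients, TEST 1, TEST 2 and TEST 3 were set against CONTROL 1 and CONTROL 2. K14-TSLP was named for the TEST hosts only, the donor cells differed in TSLPR, and the nodes taken differed in part. These cannot be told apart here. None of the 9 genes passed in limma, against 3 of 10816 genes, or 0.0277%, and 3 of the 9 had an unadjusted p under 0.05, against 17.6% of all genes. The rank-sum test was not run on these 5 libraries. The exact permutation test cannot give a p below 0.1 on 3 against 2, so no conclusion is drawn from it. It gave an unadjusted p of 0.1 for Nrp1, Gpr83 and Lrrc32. Nrp1 was above in all TEST libraries, as were 7.49% of all genes, and its log2 difference was 1.63 ± 0.27 (SE; limma adjusted p = 0.0879). Gpr83 was at 2.58, 0.98 and 2.98 FPKM in these TEST libraries, against 11.8 and 20.0 FPKM in CONTROL 1 and CONTROL 2, a difference of -2.43 ± 0.40 (SE; limma adjusted p = 0.0879). These fits counted TEST 1 and TEST 2, which share mice, as separate libraries. With the 2 averaged, the difference was 1.73 for Nrp1 and -2.30 for Gpr83 (limma adjusted p = 0.303 and 0.301). Lrrc32 also lay below both CONTROL libraries in all 3 TEST libraries, at -1.47 ± 0.41 (SE; limma adjusted p = 0.188), and 29.7% of all genes lay below in this way. Foxp3 differed by -1.14 ± 0.68 (SE; limma adjusted p = 0.392), and by -0.50 without TEST 3, -0.23 without CONTROL 1 and -2.06 without CONTROL 2. Without CONTROL 1, with 1 CONTROL library left and its spread taken from the TEST libraries, the difference was 1.54 for Nrp1 and -2.79 for Gpr83.

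Between libraries of transferred and of endogenous T cells, with the group as a covariate, limma called none of the 9 genes and none of all genes (0%), and 2 of the 9 had an unadjusted p under 0.05, against 10.5% of all genes. Gpr83 was at 0.98 to 20.0 FPKM with a median of 3.62 in the 6 transferred libraries, and at 6.41 to 48.9 FPKM with a median of 22.1 in the 4 endogenous ones. Its log2 difference was -1.47 ± 0.56 (SE; limma adjusted p = 0.407), -0.74 without TEST 6 (limma adjusted p = 0.612) and -2.02 without CONTROL 3 (limma adjusted p = 0.296). Nrp1 was at 8.13 to 38.6 FPKM with a median of 18.6 in transferred and at 3.67 to 20.4 FPKM with a median of 7.92 in endogenous cells, a log2 difference of 0.75 ± 0.30 (SE; limma adjusted p = 0.418). Foxp3 had medians of 86.6 FPKM in transferred and 95.4 FPKM in endogenous cells (limma adjusted p = 0.867). Lrrc32 averaged 30.3 FPKM in TEST and 94.9 FPKM in CONTROL among transferred cells, and 59.5 FPKM in TEST and 45.7 FPKM in CONTROL among endogenous cells. The interaction of group and transfer was -2.04 ± 0.62 (SE) on the log2 scale, with an unadjusted p of 0.0068 and an adjusted p of 0.484 in limma, and no gene was called for it.

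Between strains, with the group as a covariate, limma called none of the 9 genes, against 64 of 10743 genes, or 0.596%, and 1 of the 9 reached an unadjusted p under 0.05, against 9.07% of all genes. That gene was Gpr83, at 4.26, 34.9 and 48.9 FPKM in the BALB/c libraries TEST 5, TEST 6 and CONTROL 4, against 0.98 to 20.0 FPKM with a median of 6.41 in the 7 C57BL/6 libraries. The log2 difference was 1.84 ± 0.52 (SE; limma adjusted p = 0.231), and it passed without TEST 5, the BALB/c host of transferred cells, at 2.56 (limma adjusted p = 0.0435). Without TEST 6, the endogenous BALB/c library, it was 1.13 (limma adjusted p = 0.793). No group by strain interaction was called for any gene.

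The draining and non-draining nodes of the same 4 mice, TEST 1 and TEST 2, were close for most of the genes, with 1 library each and no test. The draining value was 0.936 times the non-draining one for Foxp3, 0.979 for Ikzf2, 0.971 for Nrp1 and 1.08 for Lrrc32. Ctla4 and Tnfrsf18 were lower in the draining node, at 0.790 and 0.796 times. Ikzf4 was 1.27 times and Il10 1.13 times as high, and Gpr83, at 2.58 and 0.98 FPKM, was 2.63 times as high.

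Other genes known from regulatory T cells were taken from lists, none of whose members passed in limma between TEST and CONTROL at an adjusted p of 0.05. Of 21 tested surface and suppressor genes, 18 had a positive difference and 7 of these an unadjusted p under 0.05, and their median was 0.79, against 0.003 over all genes. Of all 10743 genes 50.3% had a positive and 49.7% a negative difference, and 6.42% were higher and 7.30% lower at an unadjusted p under 0.05, which are the shares to set beside the counts of this and the following lists. Itgae, the CD103 integrin chain, averaged 27.9 ± 14.4 FPKM in TEST and 8.15 ± 8.45 FPKM in CONTROL (SD; limma adjusted p = 0.148). Lag3, an inhibitory receptor, averaged 9.43 ± 4.17 FPKM in TEST and 2.56 ± 2.13 FPKM in CONTROL (SD; limma adjusted p = 0.138). Entpd1, the ectoenzyme CD39, averaged 10.2 ± 4.94 FPKM in TEST and 2.77 ± 1.93 FPKM in CONTROL, and Tnfrsf4, the OX40 receptor encoded beside Tnfrsf18, 235 ± 92.2 FPKM in TEST and 103 ± 51.1 FPKM in CONTROL (SD; limma adjusted p = 0.170 and 0.173). These genes are also expressed by activated conventional CD4+ T cells.

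Of 11 genes of effector regulatory T cells, 10 had a positive difference (50.3% of all genes), 7 with an unadjusted p under 0.05 (6.42% of all genes higher at that level), and the median was 1.21. Gata3, a transcription factor of regulatory and of type 2 helper T cells, averaged 73.4 ± 21.2 FPKM in TEST and 21.6 ± 13.8 FPKM in CONTROL (SD; limma adjusted p = 0.057). All its TEST libraries lay above all CONTROL libraries, as for 1.48% of all genes. Il1rl1, the IL-33 receptor, averaged 50.8 ± 28.0 FPKM in TEST and 11.3 ± 14.6 FPKM in CONTROL, Batf 78.8 ± 8.96 and 37.7 ± 21.6 FPKM, and Areg, encoding amphiregulin, 12.1 ± 6.52 and 3.94 ± 4.73 FPKM (SD; limma adjusted p = 0.137, 0.138 and 0.232). Type 2 helper cells express Gata3 and Il1rl1 as well, and the part of each cell type was not tested.

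Among 11 regulators of Il10, 10 had a positive difference (50.3% of all genes), 4 with an unadjusted p under 0.05 (6.42% of all genes higher at that level), and the median was 0.93. This list shares Irf4, Maf and Prdm1 with the effector list and Icos with the surface list, so the counts are not separate. Ahr, a ligand-activated transcription factor, averaged 15.3 ± 8.55 FPKM in TEST and 4.14 ± 2.23 FPKM in CONTROL (SD; limma adjusted p = 0.138). Its TEST libraries were all above its CONTROL libraries, as for 1.48% of all genes. Maf averaged 22.3 ± 7.49 FPKM in TEST and 13.5 ± 10.8 FPKM in CONTROL, Nfil3 29.9 ± 7.64 and 17.7 ± 15.6 FPKM, and Icos, a costimulatory receptor encoded near Ctla4, 358 ± 132 and 208 ± 153 FPKM (SD; limma adjusted p between 0.304 and 0.338).

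Of 19 transcriptional regulators of regulatory T cells, 14 had a negative difference (49.7% of all genes), 4 of these with an unadjusted p under 0.05 (7.30% of all genes lower at that level), and the median was -0.25. Bach2, a repressor that restrains effector differentiation, averaged 27.1 ± 8.58 FPKM in TEST and 62.2 ± 24.3 FPKM in CONTROL (SD; limma adjusted p = 0.148). Foxo3 averaged 10.6 ± 3.25 FPKM in TEST and 18.1 ± 3.32 FPKM in CONTROL, Rel 62.1 ± 16.2 and 115 ± 43.8 FPKM, and Ikzf3, encoding Aiolos, 49.8 ± 11.6 and 82.4 ± 29.8 FPKM (SD; limma adjusted p between 0.247 and 0.309). Foxp1, a paralog of Foxp3, averaged 40.0 ± 11.2 FPKM in TEST and 79.8 ± 16.0 FPKM in CONTROL, a log2 difference of -0.99 ± 0.22 (SE; limma adjusted p = 0.113). Foxp4, another paralog, averaged 11.8 ± 3.48 FPKM in TEST and 12.2 ± 5.84 FPKM in CONTROL (SD; limma adjusted p = 0.998).

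Of 8 genes that regulatory T cells repress, 6 had a negative difference and the median was -0.52. Lef1, a factor of naive T cells, averaged 53.3 ± 39.6 FPKM in TEST and 118 ± 30.9 FPKM in CONTROL, and Tcf7, its relative, 236 ± 84.8 and 352 ± 46.9 FPKM (SD; limma adjusted p = 0.223 and 0.332). Pde3b averaged 20.4 ± 14.4 FPKM in TEST and 31.5 ± 9.17 FPKM in CONTROL (SD; limma adjusted p = 0.388). Il2, which regulatory T cells make little of, was at 9.68 to 503 FPKM in TEST and 4.95 to 23.3 FPKM in CONTROL, a log2 difference of 2.24 ± 0.96 (SE; limma adjusted p = 0.334).

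**Figure D5:**
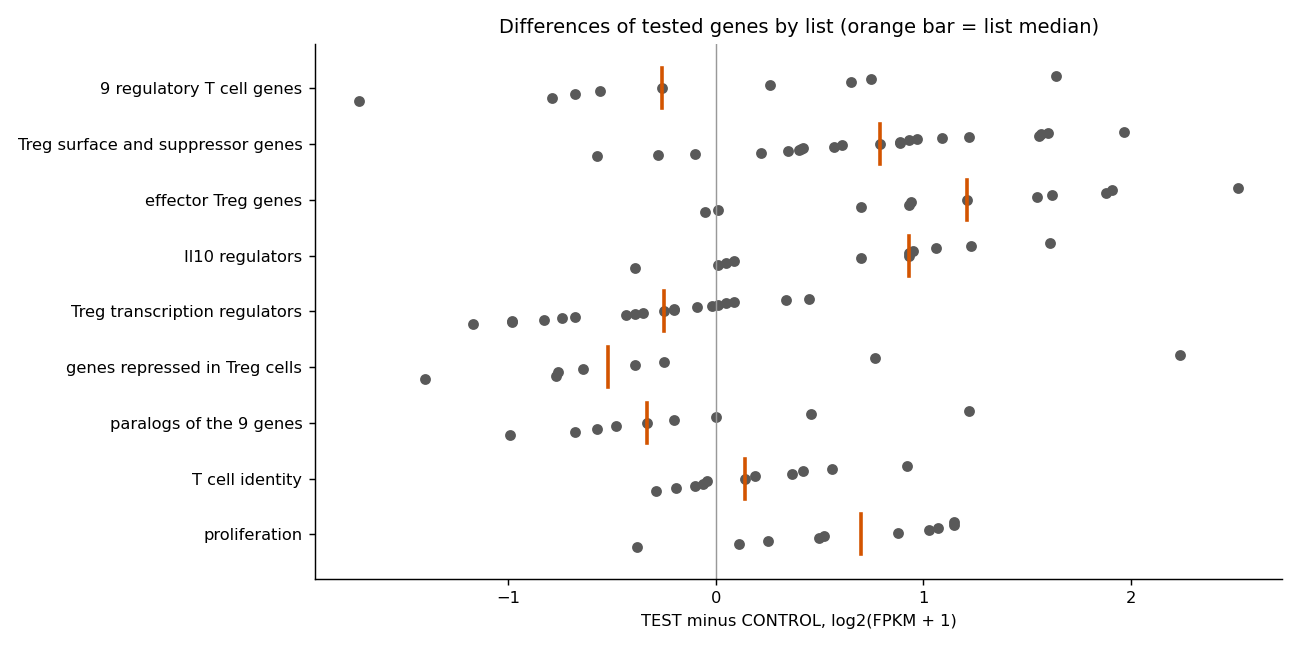
Difference between TEST and CONTROL on the log2(FPKM + 1) scale (horizontal axis) of each tested gene in 9 lists, 1 point for each gene, with an orange bar at the median of the list. The medians run from -0.52 for genes repressed in regulatory T cells to 1.21 for effector regulatory T cell genes, with -0.26 for the 9 genes of interest.

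Of 9 tested paralogs of these genes, 3 had a positive difference, and of 9 tested genes that lie next to them on the chromosome, 5 had one, and none passed. Nrros, a relative of Lrrc32 listed under the symbol Lrrc33, averaged 17.1 ± 3.97 FPKM in TEST and 12.1 ± 2.25 FPKM in CONTROL (SD; limma adjusted p = 0.378). Itgb1, an integrin gene that neighbours Nrp1, averaged 72.2 ± 15.5 FPKM in TEST and 33.6 ± 13.7 FPKM in CONTROL, and Mapkapk2, near Il10, 63.6 ± 21.7 and 36.2 ± 10.4 FPKM (SD; limma adjusted p = 0.137 and 0.278). The 11 T cell identity genes had a median difference of 0.14 and the 10 proliferation genes one of 0.70, with 4 of the proliferation genes, Top2a, Ccnb1, Cdk1 and Rrm2, at an unadjusted p under 0.05 and adjusted p between 0.28 and 0.341 in limma. The proliferation, surface and effector lists had medians of the same sign, and the part of proliferation in the others was not tested.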

How the data were processed

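RNA of sorted and stimulated CD4+ T cells was sequenced on Illumina HiSeq machines. The study's methods name Bowtie and mm10 for alignment, while BWA and RSEM stand in the submitters' processing notes with no version. The deposited unit is FPKM, which the authors computed per gene and library. RNA selection and the use of strand in counting are not given in the sources used here. FPKM values hold no counts, so the depth is unknown. From the spacing of low values, relative depths lay between 0.63 and 1.2 (TEST 1 as 1), with TEST 4 not resolved. Gene IDs matched RefSeq on GRCm38.p6 for 99.7% of rows. Stimulation in culture is as the labels give it, while the paper describes fresh sorted cells.

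Groups were taken from the labels. Differences were fitted with limma 3.58.1 (R 4.3.3, prior following the mean level, two-sided) on log2(FPKM + 1) over genes that reached 1 FPKM in 4 or more libraries, or 2 in the comparison of implanted-tumor recipients, with Benjamini-Hochberg adjustment over all genes tested and a threshold of 0.05. The published contrast used tests on counts, which FPKM does not allow. The added 1 shrinks differences of weakly expressed genes. Transferred against endogenous cells and BALB/c against C57BL/6 had the group as a covariate. Exact permutation tests of the group labels were made for single genes. TEST 1 and TEST 2 share mice, so the libraries represent fewer independent samples than their number, and genotype, tissue and strain differ between libraries of a group and cannot be fully told apart from the group. The 9 genes, the lists and the alternatives were chosen with earlier results of these data known. Named were all 9 genes, up to 4 genes of each list with the smallest p, the 8 genes most like Foxp3 at a mean of 2 FPKM or more, and Crlf2. Flicr, Ccdc22, Gm16008, Foxp4 and Mki67 were chosen after seeing their values. The alternatives changed the pseudocount, the filter, scaling, library weights, the prior, a rank-sum test, covariates, subsets and leaving out each library. Lists of B cell, plasma cell, CD8 T cell and NK cell, myeloid, dendritic, endothelial and platelet markers served as checks.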

Additional observations from a re-analysis of the deposited data

Results flagged for a closer look

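Foxp3 in TEST 3, at 21.9 FPKM, lay below the other TEST libraries by 0.74 of the range of the group. This library was examined because of that value, so the gap is a description and no test of it is given. The spread of the other groups of values of the 9 genes, 17 in all, was examined with Dixon's test on FPKM. If the values were normally spread, chance alone would mark about 1, and skewed FPKM values can raise that number. It marked 2 values. Ikzf2 in CONTROL 1, at 75.7 FPKM, lay above the other CONTROL libraries by 0.90 of the range. Gpr83 in TEST 6, the endogenous BALB/c library, lay at 34.9 FPKM and above the other TEST libraries by 0.84 of the range. Both are high values, which stand out less on the log2(FPKM + 1) scale of the fits. These marks therefore hold for FPKM only.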

How the results depend on the processing

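For the 9 genes between TEST and CONTROL, and for Foxp3 and the genes at an unadjusted p under 0.05 in the other comparisons, 346 values were recomputed, of which 333 kept their direction and their side of the threshold, 7 changed sign and 6 passed the threshold where they had not. Between TEST and CONTROL, Ikzf2 ranged from -0.48 to 0.19 on leaving out 1 library, was 0.27 in endogenous cells alone (an alternative chosen after seeing the data) and changed sign without CONTROL 1. Ikzf4 was -0.05 within C57BL/6 and -0.03 in endogenous cells alone, where Lrrc32 was 0.41. Between transferred and endogenous cells Foxp3 was 0.02 without ribosomal RNA rows and ranged from -0.64 to 0.02 on leaving out 1 library. The number of the 9 genes called ranged from 0 to 1 on leaving out 1 library for TEST against CONTROL and for BALB/c against C57BL/6, and from 0 to 3 in the implanted-tumor recipients, and was 2 with library weights for TEST against CONTROL. In the other alternatives for these 4 comparisons it was 0, which for the rank-sum test says little, since that test could hardly call any gene.

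Over all genes, 10 were called between TEST and CONTROL, 8 of them higher in TEST. The count was 22 with TPM scaling (14 higher), 20 without ribosomal RNA rows (11 higher), 20 with median-ratio scaling (13 higher), 24 with quantile scaling (16 higher), 20 at a pseudocount of 0.1 and 0 at 5. It was 1 with no filter, 5 with a filter at 5 FPKM and 334 with library weights. With strain or transfer as a covariate it was 28 and 23. The count was 0 with TEST 1 and TEST 2 averaged, with the rank-sum test and in endogenous cells alone. The rank-sum test could hardly call any gene, since its smallest possible p at these group sizes, 0.00952, is then adjusted over all genes. Leaving out 1 library gave 0 to 84 genes between TEST and CONTROL, 0 to 15 between transferred and endogenous cells, 27 to 85 between strains and 2 to 907 in the implanted-tumor recipients, where the count was 6 with TPM scaling and 6 without ribosomal RNA rows. The cause of these shifts was not tested. No paired analysis was possible because TEST and CONTROL libraries came from different mice and their replicate numbers follow accession order only. The mice shared by TEST 1 and TEST 2 were handled by averaging these libraries.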
